A study of Mus musculus with 30 samples.

Results

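Blood leukocytes of mice taken 2 days after cyclophosphamide were compared with those of untreated mice. The comparison used 8 of the 15 blood samples of the series, 4 at day 2 and 4 untreated, chosen by their sample titles. The day 2 samples came from DBA/2 mice, an inbred strain, that were injected intraperitoneally with cyclophosphamide at 83 mg per kg and bled 2 days later. The untreated samples came from DBA/2 mice given no drug. The labels give no age or sex and do not say whether a sample is 1 mouse or several. The design text says only that the harvests were independent. P-values therefore measure the spread between samples, estimated within groups over all 15 blood samples.

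Cyclophosphamide is a prodrug that liver enzymes turn into a DNA-alkylating mustard, and it kills dividing blood cell precursors in the bone marrow while sparing many resting cells. Neutrophils and monocytes live only briefly in blood and are replaced from the marrow, where a reserve of finished neutrophils is stored and can be released through the granulocyte colony-stimulating factor receptor. Lymphocytes live longer, but B cells in particular are known to be sensitive to the drug. The question behind the comparison is how the transcripts of circulating leukocytes differ from normal at an early time after such a dose.

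Each value is a deposited log ratio, read as log2, of blood over a bone marrow reference. The blood sample was labelled with the dye Cy5 and the reference with Cy3. Column medians lay between -0.0028 and 0.025, so 0 marks the typical blood to marrow ratio of an array, not an equal amount. Above or below marrow is meant below in that sense, relative to the typical feature of the array. The cell type label of the reference calls it a pool of untreated marrow cells, while its treatment label names cyclophosphamide at 83 mg per kg; differences between blood groups do not depend on which is true as long as the reference was the same on every array. The base of the logarithm is not stated and was taken as 2; natural logarithms cannot be told apart from it, and would rescale every printed ratio and change by 1 common factor without altering a test. Every sample was measured in 2 technical replicates, whose correlation was between 0.827 and 0.956 over the 8 samples, and their mean was used. Between 5650 and 8857 features had a value in a sample, with the fewest in day 2 replicate 1, and no source used here says why the rest are blank. Across features, the correlation between samples had a median of 0.812 within day 2, 0.818 within untreated and 0.601 between the 2 groups.

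A feature, meaning a gene or a probe with no single gene name, was tested where it had a value in at least 3 samples on each side. Of 13027 features, 6594 were tested and 4781 of those carried a gene symbol. In limma, with an adjusted p under 0.05 as the threshold, 826 features differed between day 2 and untreated blood, which is 12.5% of those tested. There were 316 higher at day 2 (4.79%) and 510 lower (7.73%), and 223 and 353 of them had a gene symbol. The falls were deeper than the rises, with a median change of -0.79 over the features that fell and 0.54 over those that rose. A fall of at least 1 on the log2 scale was seen for 168 called features and a rise of that size for 36. Over all 6594 features the median change was 0.06, and 58.1% of the changes were above 0. All day 2 values lay above all untreated values in 11.2% of the tested features and below them in 10.2%; among the called features that was so for 287 of the 316 that rose and 489 of the 510 that fell. Without untreated replicate 4 the calls numbered 530, 151 of them higher and 379 lower, and without day 2 replicate 1 there were 760.

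**Figure D1:**
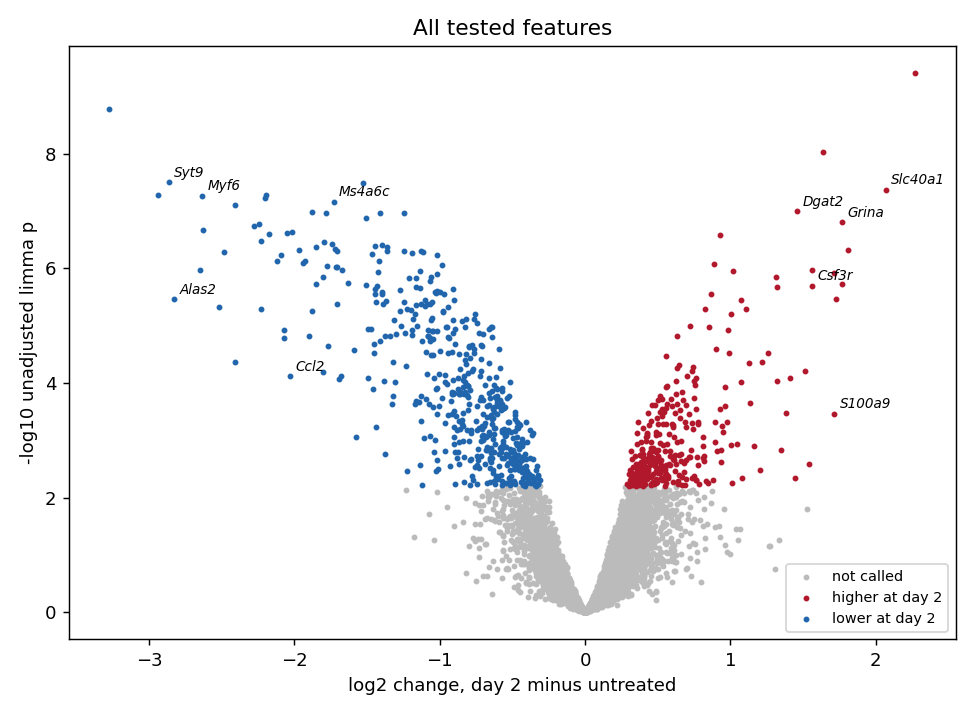
Log2 change (day 2 minus untreated, horizontal axis) against the unadjusted limma p as -log10 (vertical axis) for the 6594 tested features, with the 316 called higher in red and the 510 called lower in blue. The lower side reaches past -2.5 and holds 168 called falls of at least 1, against 36 rises of that size on the higher side.

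Transcripts of mature neutrophils were among those that rose at day 2. Of 32 genes on the mature neutrophil list 13 were tested, 6 of them rose (46.2%, beside 4.79% of all features) and 0 fell. The median change was 0.63 beside 0.06 over all tested features. Csf3r (gene 12986), the receptor for granulocyte colony-stimulating factor, had log2 ratios of 2.24, 2.00, 1.34 and 2.47 in the 4 day 2 samples, against 0.22, 0.23, 0.74 and 0.62 in the 4 untreated samples. All day 2 samples were above all untreated ones. The rise was 1.56 ± 0.21 (SE, adjusted p = 0.000177). S100a9 (gene 20202), a calcium-binding protein that makes up much of the neutrophil cytosol, had values of -0.59, -0.48, -1.02 and -0.41 at day 2, against -3.12, -1.70, -2.95 and -1.58 in untreated blood. The untreated samples were spread over more than the day 2 samples, with replicates 1 and 3 far lower than replicates 2 and 4, yet the groups did not overlap. Its change was 1.71 ± 0.37 (SE, adjusted p = 0.00647).

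Trem1 (gene 58217), a receptor that amplifies inflammatory signals on neutrophils, was at 3.14, 3.88, 2.83 and 4.20 at day 2, against 1.96, 1.59, 2.43 and 2.02 in untreated blood. It was already above marrow in untreated mice and moved further above it, with no overlap between the groups and a change of 1.51 ± 0.28 (SE, adjusted p = 0.0019). Mmp9, the gelatinase of neutrophil granules, averaged -0.12 ± 0.52 at day 2 and -1.25 ± 0.43 in untreated blood (SD, n = 4 each) and rose by 1.14 (adjusted p = 0.00479), although day 2 replicate 3, the lowest of its group, lay just under untreated replicate 2. Fpr2, a receptor for formylated bacterial peptides, rose by 1.13, and C5ar1, the receptor for the complement fragment C5a, by 0.63 (adjusted p = 0.00147 and 0.0152). By role, 4 of 6 tested receptors and chemotaxis genes rose and 2 of 7 granule and cytosolic genes, so the count was led by surface receptors. The 7 members that were not called had changes between -0.62 and 0.63.

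**Figure D2:**
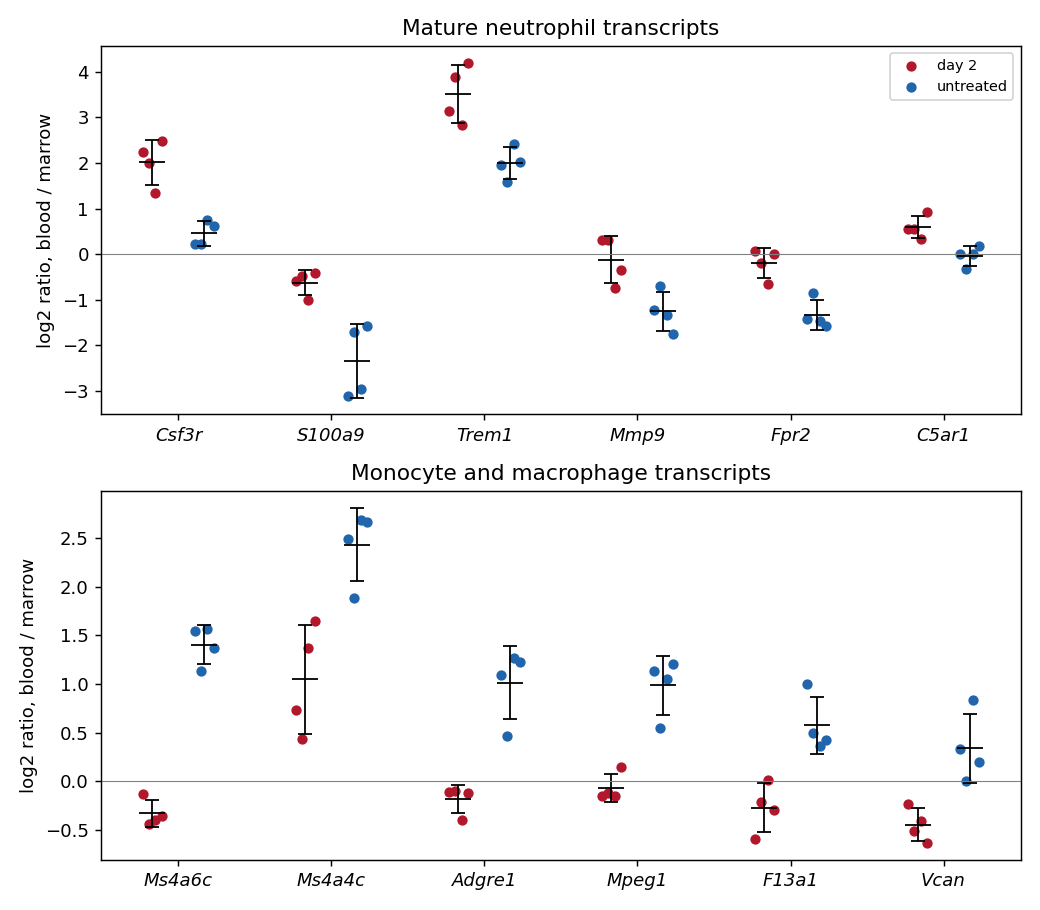
Log2 ratio of blood over marrow in every day 2 (red) and untreated (blue) sample for 6 neutrophil and 6 monocyte and macrophage transcripts, with the mean and SD of each group in black. The 4 day 2 samples lie above the untreated ones for Csf3r, S100a9, Trem1, Fpr2 and C5ar1 and below them for all 6 monocyte genes, while 1 day 2 sample of Mmp9 touches the untreated range.

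The promoter windows of S100a9 and Trem1 are shown because these genes rose together and their upstream sequence can be read beside the values. Each is 250 bases before to 50 after the RefSeq start in GRCm38.p6, printed along the gene's own strand, with capitals for any match to 3 motifs searched on both strands: AGATAA (bound by GATA factors), TTGCNNAA (C/EBP factors) and GGAAGT (ETS factors).
S100a9 (chr3:90695672-90695971, minus strand): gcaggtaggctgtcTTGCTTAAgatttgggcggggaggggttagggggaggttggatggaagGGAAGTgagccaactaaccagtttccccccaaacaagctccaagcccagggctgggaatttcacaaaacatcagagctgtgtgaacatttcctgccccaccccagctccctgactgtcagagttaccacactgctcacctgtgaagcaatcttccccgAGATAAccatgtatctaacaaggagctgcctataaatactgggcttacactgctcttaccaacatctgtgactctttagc
Trem1 (chr17:48232489-48232788, plus strand): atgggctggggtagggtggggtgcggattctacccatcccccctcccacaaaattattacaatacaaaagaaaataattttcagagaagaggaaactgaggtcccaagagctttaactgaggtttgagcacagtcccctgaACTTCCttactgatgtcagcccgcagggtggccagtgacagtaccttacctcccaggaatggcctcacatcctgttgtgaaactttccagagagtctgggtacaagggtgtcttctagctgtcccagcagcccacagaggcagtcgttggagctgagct
The S100a9 window held 1 match to each motif and the Trem1 window 1 match to the ETS motif. Over all 32851 promoters of the table, 11.2% held the GATA motif, 10.8% the C/EBP motif and 23.8% the ETS motif. Of 229 promoters of genes that rose, these shares were 10.9%, 8.73% and 27.1%, and of 383 promoters of genes that fell they were 12.5%, 9.14% and 21.7%. Promoters of tested genes that were not called held them in 7.37%, 9.55% and 27.1% of cases. A match is a description of the letters only.

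Few genes of earlier neutrophil stages could be tested. Of 7 tested precursor granule genes 0 rose, 1 fell, and the median change was -0.22. That median was 0.06 without untreated replicate 2 or without day 2 replicate 2, and 1 gene was called higher without day 2 replicate 4. Over all features 4.79% rose, so 0 of 7 does not set these genes apart. In limma 1 gene was higher at an unadjusted p under 0.05, and the uncalled changes reached 0.96. The member that fell was Ctsc (gene 13032), cathepsin C, the protease that activates granule serine proteases in neutrophils and cytotoxic cells and that monocytes also make. It stood at -0.52, -1.10, -0.41 and -0.02 at day 2, against 1.65, 1.00, 1.75 and 1.85 in untreated blood and fell by 2.07 ± 0.33 on the log2 scale (SE, adjusted p = 0.000546) with no overlap. None of the 4 tested NADPH oxidase and phagosome genes was called by limma, 0 had an unadjusted p under 0.05, and their median change was 0.16.

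Transcripts of monocytes and macrophages were among those that fell at day 2. Of 34 listed genes 17 were tested, 10 fell (58.8%, beside 7.73% of all features) and 0 rose, with a median change of -0.79. Ms4a6c (gene 73656), a membrane protein of monocytes, had ratios of -0.13, -0.43, -0.40 and -0.35 at day 2, against 1.55, 1.13, 1.56 and 1.37 in untreated blood. All untreated samples were well above marrow and all day 2 samples below it, and it fell by 1.73 ± 0.18 (SE, adjusted p = 4.16e-05). Its relative Ms4a4c fell by 1.39 (adjusted p = 0.00254). Ccl2 (gene 20296), the chemokine that draws monocytes out of marrow into blood and tissue, was at 0.39, 0.31, 0.38 and 0.24 at day 2, against 2.43, 0.98, 2.89 and 3.15 in untreated blood. The day 2 values were nearly equal to each other, while untreated replicate 2 was far below the other untreated samples; Ccl2 fell by 2.03 ± 0.38 (SE, adjusted p = 0.00224) without overlap.

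Adgre1, a classic surface antigen of mouse macrophages, fell by 1.20, and Mpeg1, a pore-forming protein of phagocytes, by 1.05 (adjusted p = 0.000308 and 0.000404). The chemokine Ccl9 fell by 1.04 over 3 day 2 and 4 untreated samples, and the coagulation factor chain F13a1, which blood monocytes carry, by 0.84 (adjusted p = 0.0203 and 0.00797). Lyz2, Vcan and Ms4a6d, which were named after their values were seen, complete the 10: they encode lysozyme, the matrix proteoglycan versican and a further MS4A membrane protein, and fell by 0.83, 0.79 and 0.68 (adjusted p = 0.0235, 0.0106 and 0.0129). Lyz2 had values in 3 samples of each group and lost its call in some alternatives (called in 13 of 18). The 7 members that were not called spanned -0.59 to 1.04, so the list did not move as a block. In a bulk sample, fewer cells of a type and less RNA per cell cannot be told apart, which holds for every list of cell type genes given here.

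Over the alternatives run, 5 to 6 neutrophil genes were called higher and 8 to 12 monocyte genes lower. Without day 2 replicate 1, 6 neutrophil genes rose and 1 fell, and 9 monocyte genes fell. With quantile normalization the neutrophil median was 0.27 in place of 0.63, with 6 genes higher. By sample, the mean log2 ratio of 5 measured neutrophil markers, all among the 6 genes called higher, was between 0.35 and 1.18 in the day 2 samples and between -0.72 and -0.29 in the untreated ones. That of 4 monocyte markers (Adgre1, Mpeg1, Ms4a6c and F13a1), all among the 10 called lower, was between -0.24 and -0.15 at day 2 and between 0.66 and 1.20 in untreated blood. These means describe the same calls and add no separate evidence. The part of these markers in the other changes was not tested.

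Other myeloid and granulocyte lists held fewer calls. Of 6 tested dendritic cell genes 2 fell, Batf3, a transcription factor of cross-presenting dendritic cells, by 1.07 ± 0.22 and Ccr9, a gut-homing chemokine receptor of plasmacytoid dendritic cells and T cells, by 1.06 ± 0.14 (SE, adjusted p = 0.00492 and 0.000143). Ccr9 was tight in both groups, with a range of -0.97 to -0.67 at day 2 and 0.11 to 0.52 in untreated blood. Of 8 tested eosinophil, basophil and mast cell genes 3 fell (37.5%, beside 7.73% of all features), with a median of -0.34. These were the mast cell tryptase Tpsb2 (-0.82), the basophil receptor Cd200r3 (-0.65) and the cytokine Il4 (-0.57; adjusted p = 0.00107, 0.000511 and 0.0449). Il4 was called in 10 of 21 alternatives, the others in all.

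Of 30 tested B, NK and T cell genes 7 were called, 23.3% beside 12.5% of all features, with 6 lower and 1 higher at day 2. Of 11 tested B cell genes 2 fell and 0 rose, with a median change of -0.41. Fcmr (gene 69169), the Fc receptor for IgM, had ratios of 0.16, 0.60, 0.21 and 0.27 at day 2, against 0.84, 0.78, 1.25 and 1.11 in untreated blood. Its groups did not overlap, and it fell by 0.69 ± 0.16 (SE, adjusted p = 0.00875). Cd72, an inhibitory co-receptor of B cells, fell by 1.38 (adjusted p = 0.0212), though untreated replicate 4 lay close to the day 2 samples. Of the B cell markers that were not called, Ms4a1, the CD20 antigen, averaged -0.49 ± 0.10 at day 2 and 0.17 ± 0.33 in untreated blood (SD, n = 4 each), a difference of -0.66 (adjusted p = 0.0669). Cd22, an inhibitory lectin of B cells, differed by -0.56 (adjusted p = 0.0728). Between 1 and 5 B cell genes were called lower over the alternatives.

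Of 8 tested NK and cytotoxic cell genes 3 fell, with a median of -0.45. Nkg7, a protein of cytotoxic granules, had ratios of 0.01, 0.30, 0.30 and 0.34 at day 2, against 0.73, 1.02, 0.93 and 1.01 in untreated blood, and fell by 0.69 ± 0.13 with no overlap (SE, adjusted p = 0.00288). Gzmk, a granzyme, fell by 0.84 over 3 day 2 samples, and Klrd1, the CD94 subunit of NK receptors, by 0.57 (adjusted p = 0.0453 and 0.049). The call was kept in 11 of 20 alternatives for Gzmk and in 8 of 21 for Klrd1, so both were near the threshold.

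T cell genes showed no common direction, with a median of 0.08 over 11 tested members, 1 higher and 1 lower. Cd4, the co-receptor of helper T cells, was 0.87, 1.06, 0.61 and 1.08 at day 2, against 0.29, 0.28, 0.43 and 0.50 in untreated blood. It lay higher in all day 2 samples, and the change of 0.53 ± 0.16 (SE, adjusted p = 0.0427) was kept in only 8 of 21 alternatives. Izumo1r, a surface protein of the folate receptor family found on regulatory T cells, fell by 1.39 ± 0.20 (SE, adjusted p = 0.000267). The complex that defines T cells could not be followed, since Cd3e, Cd3d and Cd3g had too few values to be tested.

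Averaged over 9 members, platelet transcripts lay above marrow in every sample, at 1.72 to 2.86 at day 2 and 1.71 to 1.88 in untreated blood, and their differences at day 2 were positive but did not pass the test. All 9 tested members had a positive change, with a median of 0.61; limma called 0 of them, while 4 had an unadjusted p under 0.05. Treml1, a receptor of platelet granules, was 1.97, 2.21, 3.11 and 3.02 at day 2, against 1.09, 1.83, 1.66 and 2.06 in untreated blood, a difference of 0.92 ± 0.39 (SE, adjusted p = 0.142). Itga2b, the integrin chain CD41, differed by 0.72 (adjusted p = 0.0862). Pf4, platelet factor 4, split the day 2 group: replicates 1 and 2 were below all untreated samples and replicates 3 and 4 above them (0.57, 1.27, 3.69 and 3.72 at day 2, against 2.25, 2.17, 2.17 and 2.32 in untreated blood). Without day 2 replicate 1, 3 platelet genes were called higher and the median was 0.89. With quantile normalization the median was 0.14. The chemokine Ppbp differed by 0.61 (adjusted p = 0.412).

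Among erythroid genes the deep fall was in Alas2 (gene 11656), the erythroid form of the enzyme that begins haem synthesis. It had log2 ratios of -1.33, -3.24, -3.05 and -3.30 at day 2, against -0.47, -0.30, 0.39 and 0.77 in untreated blood. Day 2 replicate 1 was far above the other day 2 samples, which were close together, and still lay below every untreated sample. It fell by 2.83 ± 0.40 (SE, adjusted p = 0.000247) and was called in 21 of 21 alternatives. The Alas2 promoter window, from the same table and build, is printed for comparison with those of the neutrophil genes and held 1 GATA match, on the reverse strand, and none to the other motifs.
Alas2 (chrX:150547167-150547466, plus strand): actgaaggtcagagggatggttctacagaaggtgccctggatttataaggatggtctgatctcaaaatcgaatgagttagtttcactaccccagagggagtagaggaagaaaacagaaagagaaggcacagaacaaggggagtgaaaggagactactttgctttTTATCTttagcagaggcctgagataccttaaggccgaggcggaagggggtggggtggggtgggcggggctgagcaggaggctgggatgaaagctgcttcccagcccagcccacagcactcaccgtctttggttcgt
Of the other 15 tested erythroid genes 1 fell and 0 rose, and the median over all 16 was -0.04. Bnip3l, which clears mitochondria from maturing red cells, fell by 0.60 ± 0.13 (SE, adjusted p = 0.00518). Hba-a1, an alpha globin gene whose near-identical copies a probe may not separate, differed by -0.32 (adjusted p = 0.122), and the uncalled members ranged from -0.82 to 1.31. The mean over the 2 erythroid markers, Alas2 and Hba-a1, was between -2.35 and -1.22 at day 2 and between -0.68 and 0.09 in untreated blood. Most of that difference came from Alas2. Over the 13 erythroid genes measured in all 8 samples, the mean was between -1.17 and -0.87 at day 2. In untreated blood it was between -1.02 and -0.53, so the groups overlapped.

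The largest rise among named genes was in Slc40a1 (gene 53945), ferroportin, the only known cellular iron exporter. It stood at 0.46, 0.42, 0.16 and 0.69 at day 2, against -1.79, -1.65, -1.61 and -1.50 in untreated blood. Both groups were tight and far apart, and the rise was 2.07 ± 0.21 (SE, adjusted p = 3.85e-05). Hamp (gene 84506), hepcidin, the liver hormone that makes ferroportin degrade, fell by 0.52 ± 0.10 (SE, adjusted p = 0.00264); its ratios were -0.20, -0.15, -0.38 and -0.12 at day 2, against 0.23, 0.17, 0.39 and 0.44 in untreated blood, close to 0 on both sides. The other 9 tested iron genes were not called, and the list's median was 0.07. The folate and haem carrier Slc46a1 rose by 0.65 ± 0.12 (SE, adjusted p = 0.00158). In all, 5 of 83 tested solute carriers rose and 4 fell, shares of 6.02% and 4.82% that were near those of all features.

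Further genes among the 25 largest named rises had groups that did not overlap. Il1rn (gene 16181), the natural antagonist of the interleukin 1 receptor, was 1.23, 2.08, 1.45 and 2.10 at day 2, against 0.07, 0.11, 0.76 and 0.62 in untreated blood. Its groups were well separated, with a rise of 1.32 ± 0.25 (SE, adjusted p = 0.00257). Cyp4f18, the enzyme that inactivates leukotriene B4 in mouse neutrophils, was 2.16, 2.03, 1.64 and 2.04 at day 2, against 0.45, 0.34, 0.97 and 0.85 in untreated blood, and rose by 1.32 (adjusted p = 0.000143). Chil1, a secreted chitinase-like protein, rose by 1.56, and Klra17, a lectin-like receptor of the Ly49 family, by 1.32 (adjusted p = 0.000122 and 0.00018). Dgat2, which completes triglyceride synthesis, rose by 1.46 ± 0.16 (SE, adjusted p = 4.28e-05). Grina, a membrane protein of the TMBIM family, was 1.63, 1.35, 0.63 and 0.73 at day 2, against -0.80, -0.72, -0.60 and -0.62 in untreated blood, and rose by 1.77 ± 0.20 (SE, adjusted p = 5.48e-05). Myo7b, an unconventional myosin, rose by 1.77 ± 0.24 (SE, adjusted p = 0.000173).

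Some rises rested on part of the day 2 group. Lrg1, a secreted leucine-rich glycoprotein, was 1.38, -1.17, 0.94 and -0.51 at day 2, against -1.57, -1.68, -1.17 and -1.12 in untreated blood, so that replicates 1 and 3 carried the rise of 1.54 ± 0.43 (SE, adjusted p = 0.028) and the groups overlapped. Btnl10, a butyrophilin-like protein, had the same 2 replicates high, at -0.62, -2.69, -0.86 and -2.76 at day 2 against -3.02, -2.84, -4.02 and -2.84 in untreated blood. Its rise of 1.45 ± 0.44 (SE, adjusted p = 0.0415) was called in 11 of 21 alternatives, and that of Lrg1 in 15 of 21. Ptprf, a receptor tyrosine phosphatase, rose by 1.41, and Tmsb4x, the actin-sequestering thymosin beta 4, by 1.35 over 3 day 2 samples (adjusted p = 0.00233 and 0.019). The rest of the 25 largest were Rasip1, a Ras-interacting protein (1.17), the AP-1 repressor Jdp2 (1.11), Zcchc18 (1.07), the syntenin Sdcbp2 (1.05), the receptor Gpr146 (1.02), the Schlafen family member Slfn3 (1.01), and Gbp2 and Stat3, given below. Of these 25 rises, 22 had groups that did not overlap, beside 287 of all 316 called rises, and 19 were called in every alternative. Day 2 replicate 3 moved least in 17 of the 25.

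**Figure D3:**
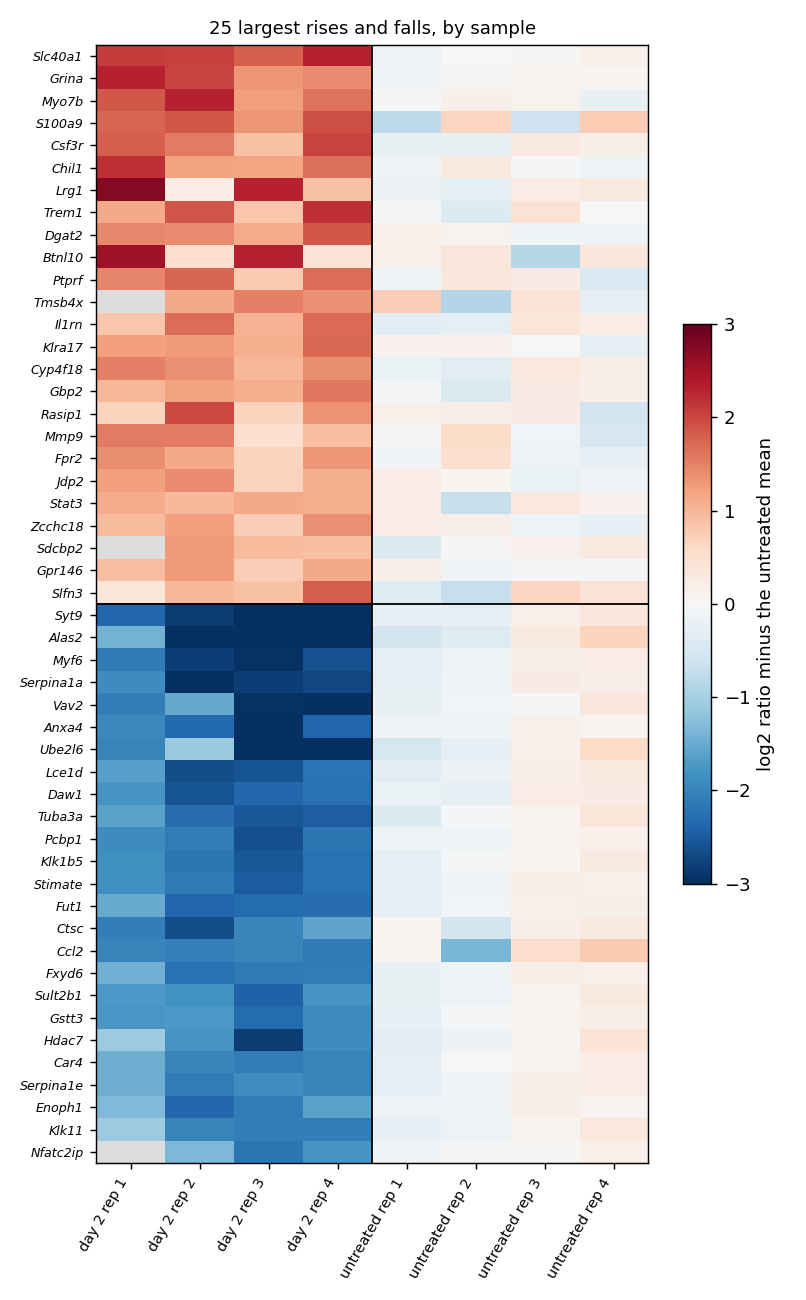
Log2 ratio minus the untreated mean (colour, red higher and blue lower) for the 25 largest named rises and 25 largest named falls, in the 4 day 2 samples (left of the black line) and the 4 untreated samples (right); grey marks a missing value, and colours end at -3 and 3. The falls are blue in all day 2 samples, palest in replicate 1 for 20 of 25, and the rises are palest in replicate 3 for 17 of 25.

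The 25 largest named falls were in genes of varied known roles. Syt9 (gene 60510), a calcium sensor of secretory vesicles in neurons and endocrine cells, was -1.64, -2.13, -2.32 and -2.54 at day 2, against 0.46, 0.46, 0.87 and 1.04 in untreated blood. Every untreated sample was above marrow and every day 2 sample far below it, and it fell by 2.87 ± 0.28 (SE, adjusted p = 3.85e-05). Myf6 (gene 17878), a skeletal muscle transcription factor, ranged over -2.34 to -1.51 at day 2, against 0.35 to 0.85 in untreated blood, and fell by 2.63 ± 0.27 (SE, adjusted p = 3.85e-05). Serpina1a, an alpha-1-antitrypsin of the liver, fell by 2.63, and its near-identical copy Serpina1e, which its probe may not separate, by 1.85 (adjusted p = 6.42e-05 and 8.29e-05). Also among the 25, Lce1d, a protein of the cornified skin envelope, fell by 2.28, the axonemal dynein assembly factor Daw1 by 2.24, the tubulin Tuba3a by 2.23, and the kallikreins Klk1b5 and Klk11 by 2.20 and 1.81.

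The 25 also include Vav2, a guanine nucleotide exchange factor (-2.52), the annexin Anxa4 (-2.49), Ube2l6, the conjugating enzyme for the ubiquitin-like protein ISG15 (-2.41), and the RNA-binding protein Pcbp1 (-2.20). Vav2 was -1.90, -1.34, -2.79 and -3.32 at day 2, against -0.05, 0.09, 0.16 and 0.53 in untreated blood, and Ube2l6 was -1.29, -0.40, -2.30 and -2.79 at day 2, against 0.20, 0.47, 0.87 and 1.31 in untreated blood. Both were uneven at day 2 but did not overlap with untreated (adjusted p = 0.00029 and 0.00142). The calcium entry regulator Stimate (-2.18), the fucosyltransferase Fut1 (-2.12), the ion transport regulator Fxyd6 (-1.97), the sulfotransferase Sult2b1 (-1.94), the glutathione transferase Gstt3 (-1.93), the histone deacetylase Hdac7 (-1.90), the carbonic anhydrase Car4 (-1.88), the methionine salvage enzyme Enoph1 (-1.85) and Nfatc2ip, which binds a T cell transcription factor (-1.77, 3 day 2 samples), also fell.

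All 25 of these falls had groups that did not overlap, as had 489 of all 510 called falls. All 25 were called in every one of the alternatives that could test them. They were picked as the largest called falls, which favours both results. Their untreated means were between 0.10 and 2.36, so each averaged above the marrow reference in untreated mice. Day 2 replicate 1, the sample with the fewest measured features, moved least in 20 of the 25. As a list, 3 of 9 tested muscle, liver and nerve genes fell (33.3%, beside 7.73% of all features) and 0 rose, with a median of -0.12. The 3 were Myf6, Serpina1a and Syt9, already among the largest falls. The other 6 tested members were not called. The mean over the 7 members measured in every sample was between -0.90 and -0.52 at day 2 and between 0.11 and 0.44 in untreated blood. These 7 include the 3 called falls, so the mean largely repeats those calls and adds no separate evidence about the list. Of 7 tested endothelial genes 1 fell, Flt1, a receptor for vascular endothelial growth factor that monocytes also carry, by 1.13 ± 0.16 (SE, adjusted p = 0.000189).

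Against the neighbouring times, few features differed at day 2 from day 1 and many from day 5. The comparison with day 1 called 75 of 6589 features (1.14%), 35 higher and 40 lower at day 2. That with day 5 called 1659 of 6555 (25.3%), 826 higher and 833 lower at day 2. Both use the day 2 samples that also enter the comparison with untreated, so the 3 sets of values are given side by side for single genes. Counts against day 1 moved with single samples: without day 2 replicate 2 there were 7 calls and without untreated replicate 3 there were 25. Day 5 had 3 samples.

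The genes below were chosen for their difference between day 2 and untreated, so their p-values against other days share the day 2 samples with that choice. Slc40a1 had mean log2 ratios of -1.64 in untreated blood, -1.18 at day 1, 0.43 at day 2 and -3.36 at day 5. Day 2 was its highest time, above day 1 by 1.61 ± 0.21 and above day 5 by 3.79 ± 0.22 (SE, adjusted p = 0.00346 and 7.97e-08). Il1rn followed the same order, with means of 0.39, 0.58, 1.71 and -0.77 from untreated through day 5, and Cyp4f18 had 0.65, 0.73, 1.97 and -0.85. Both were higher at day 2 than at day 1 (by 1.14 and 1.24, adjusted p = 0.0425 and 0.00623) and than at day 5 (by 2.48 and 2.82, adjusted p = 1.31e-05 and 2.16e-07). Csf3r was higher at day 2 than at day 1 by 1.17 and than at day 5 by 2.24 (adjusted p = 0.0264 and 8.14e-06), and S100a9 by 1.70 and 2.22 (adjusted p = 0.0425 and 0.000894). Trem1 did not pass against day 1 (0.59, adjusted p = 0.433).

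Among falls, Ms4a6c was lower at day 2 than at day 1 by 1.13 and than at day 5 by 1.23 (adjusted p = 0.0145 and 0.000266). Its means were 1.40 in untreated blood, 0.81 at day 1, -0.33 at day 2 and 0.90 at day 5, so day 2 was its low point. Alas2 had means of 0.10, -1.30, -2.73 and 0.84 in the same order. It was lower at day 2 than at day 5 by 3.57 ± 0.43 (SE, adjusted p = 3.06e-05), while its difference from day 1, -1.43, did not pass (adjusted p = 0.118). Syt9 and Myf6 were lower at day 2 than at day 1 by 1.68 and 1.39 (adjusted p = 0.0215 and 0.0293). Of the lymphocyte genes given above, Fcmr was higher at day 2 than at day 5 by 0.79, and Nkg7 by 0.44 (adjusted p = 0.00304 and 0.0334).

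**Figure D4:**
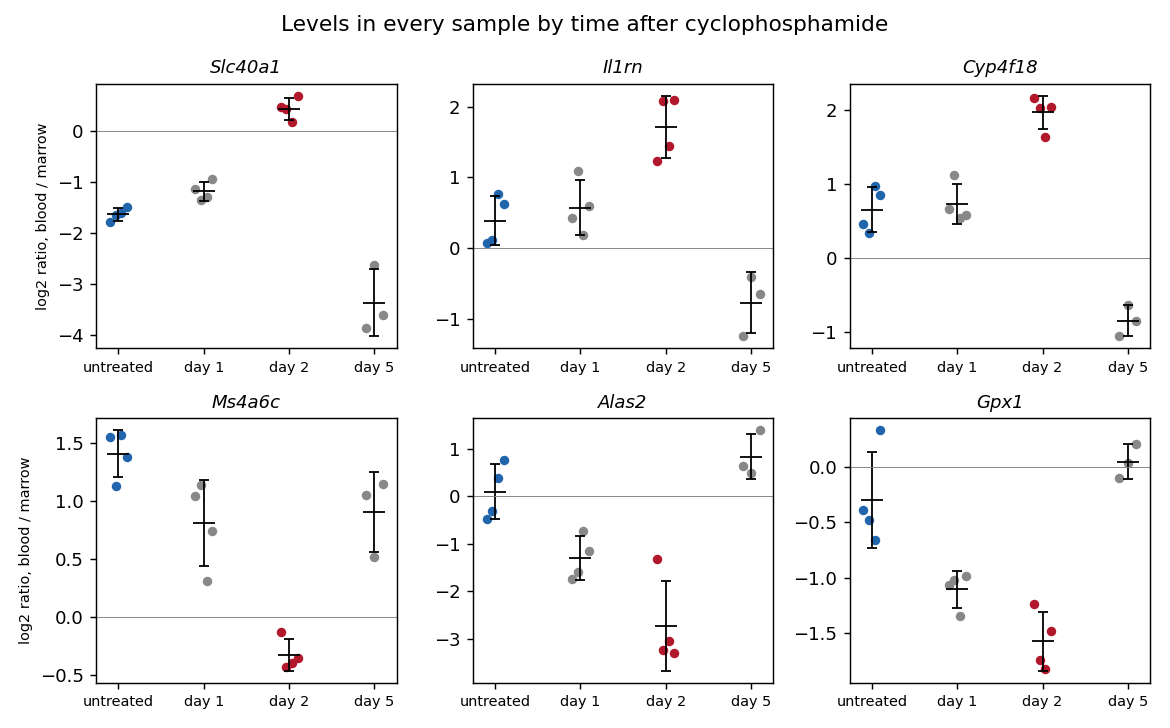
Log2 ratio of blood over marrow in every sample (points) of untreated, day 1, day 2 and day 5 blood, with group mean and SD in black, for 3 genes that were higher and 3 that were lower at day 2 than untreated. Slc40a1, Il1rn and Cyp4f18 peak at day 2 and lie lowest at day 5, while Ms4a6c, Alas2 and Gpx1 have their lowest means at day 2.

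Immune signalling genes held calls in both directions. Of 38 tested cytokine, chemokine and receptor genes 4 rose and 4 fell, with a median of 0.04. That was 10.5% in each direction, beside 4.79% higher and 7.73% lower over all features. Among ligands, Il1rn and the chemokine Cxcl16 rose (by 1.32 and 0.51), while Ccl2, Ccl9 and the B cell survival factor Tnfsf13 fell. Tnfsf13, known as APRIL, was -0.95, -1.77, -0.99 and -1.51 at day 2, against 0.08, -0.05, 0.17 and 0.16 in untreated blood, and fell by 1.40 ± 0.17 with no overlap (SE, adjusted p = 8.29e-05). Among receptors, Csf3r and Il1rap, the accessory chain of the interleukin 1 receptor, rose and Ccr9 fell. Il1rap was 1.10, 1.32, 0.86 and 1.29 at day 2, against 0.33, 0.13, 0.47 and 0.33 in untreated blood, and the rise was 0.82 ± 0.12 (SE, adjusted p = 0.000304).

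In innate sensing, 3 of 9 tested genes rose and 1 fell, shares of 33.3% and 11.1% beside 4.79% and 7.73% of all features. Clec7a, the beta-glucan receptor dectin-1, rose by 0.93 ± 0.20, its downstream kinase Syk by 0.75 ± 0.15, and Myd88, the adaptor of toll-like receptors, by 0.72 ± 0.19 (SE, adjusted p = 0.00557, 0.00408 and 0.0232). Pycard, the adaptor of inflammasomes, fell by 0.73 ± 0.12 (SE, adjusted p = 0.000581), with -0.25, -0.24, -0.25 and -0.09 at day 2, against 0.70, 0.31, 0.60 and 0.48 in untreated blood. With quantile normalization the rise of Clec7a was smaller, and it was called in 20 of 21 alternatives and Myd88 in 16 of 21.

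Of 16 tested interferon-stimulated genes 3 rose and 1 fell, with a median of 0.18. The shares were 18.8% and 6.25%, beside 4.79% and 7.73% of all features. A single gene was called higher without untreated replicate 1, 3 or 4, without day 2 replicate 2, 3 or 4, and with the replicate block, and the median was 0.03 without day 2 replicate 4. Gbp2, an interferon-induced GTPase, was 3.13, 3.34, 3.21 and 3.71 at day 2, against 2.10, 1.70, 2.38 and 2.33 in untreated blood, with no overlap and a rise of 1.22 ± 0.22 (SE, adjusted p = 0.00142). Irf9 and Iigp1, a transcription factor and a GTPase of the same response, rose by 0.55 and 0.34 (adjusted p = 0.0369 and 0.0445), and Ifih1, a sensor of double-stranded RNA, fell by 0.90 with overlapping groups (adjusted p = 0.0203). The calls of Irf9, Iigp1 and Ifih1 were kept in 12 of 21, 8 of 21 and 16 of 21 alternatives. Stat3, the transcription factor downstream of the Csf3r and interleukin 6 receptors, was 1.81, 1.67, 1.84 and 1.79 at day 2, against 0.94, 0.03, 1.01 and 0.84 in untreated blood. The day 2 values were almost equal, untreated replicate 2 was low, and the rise was 1.07 ± 0.21 (SE, adjusted p = 0.00265). Its inhibitor Socs1 rose by 0.58 (adjusted p = 0.0197). Together with Syk, 3 of 16 tested JAK-STAT and kinase genes rose (18.8%, beside 4.79% of all features) and 0 fell. Of 18 NF-kB and immediate early genes 1 rose: Rgs2, a regulator of G protein signalling, was 2.42, 2.39, 2.40 and 2.52 at day 2, against 1.53, 1.39, 1.47 and 1.62 in untreated blood (0.93 ± 0.11, SE, adjusted p = 6.78e-05). Of 5 tested Fc, complement and scavenger receptors 1 rose, C5ar1.

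Most genes of proliferation averaged below marrow in both groups and were not called. Of 14 tested cell division genes 2 rose and 1 fell, with a median of 0.28. The median was -0.06 without untreated replicate 4 and 0.52 without untreated replicate 1. Cks2, a subunit of cyclin-dependent kinases, rose by 0.78 ± 0.18, and Smc4, a condensin subunit, by 0.51 ± 0.12 (SE, adjusted p = 0.00892 and 0.00878). Nusap1, a spindle protein, was -2.39, -4.10, -3.30 and -4.25 at day 2, against -2.82, -2.11, -2.35 and -1.85 in untreated blood. Day 2 replicate 1 lay inside the untreated range, and the change of -1.23 (adjusted p = 0.0335) was called in 12 of 21 alternatives. Of 12 tested DNA replication genes 11 had a positive change, with a median of 0.28, but limma called 0, and 2 had an unadjusted p under 0.05. That median was 0.06 without untreated replicate 4.

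Few targets of the DNA damage factor p53 were called. Of 11 tested targets 0 rose in limma, also at an unadjusted p under 0.05, and 2 fell, with a median of 0.01. With a sample left out, 1 to 2 fell. Over all features 4.79% rose and 7.73% fell, so such small counts among 11 genes do not set the list apart. Tnfrsf10b, the death receptor for TRAIL, was -0.80, -0.85, -0.89 and -0.37 at day 2, against 0.36, 0.61, 0.77 and 0.84 in untreated blood and fell by 1.37 ± 0.20 (SE, adjusted p = 0.000253) without overlap. Ddit4, an inhibitor of mTOR signalling that stress and glucocorticoids raise, fell by 1.13 (adjusted p = 0.0286) and was called in 15 of 21 alternatives. None of 9 tested DNA repair and damage signalling genes was called by limma (median 0.07), and 1 had an unadjusted p under 0.05. Of 11 apoptosis genes 1 rose, the pore-forming Bak1 (0.31, called in 11 of 21 alternatives), and 1 fell, Bnip3l. None of 5 tested stem and progenitor genes was called by limma, and 2 had an unadjusted p under 0.05, both higher. Several central genes of these lists, among them Mdm2, Fas, Mki67 and Top2a, had too few values to be tested.

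Redox genes were called in both directions. Of 17 tested glutathione, aldehyde and redox genes 2 rose and 3 fell. These were shares of 11.8% and 17.6%, beside 4.79% and 7.73% of all features. Txn1 (gene 22166), thioredoxin, was 0.32, 0.38, 0.09 and 0.53 at day 2, against -0.52, -0.72, -0.54 and -0.91 in untreated blood, and rose by 1.00 ± 0.15 (SE, adjusted p = 0.000345). Gpx1 (gene 14775), a glutathione peroxidase abundant in red cells and phagocytes, was -1.24, -1.74, -1.82 and -1.48 at day 2, against -0.39, -0.48, -0.66 and 0.33 in untreated blood, and fell by 1.27 ± 0.19 (SE, adjusted p = 0.000321). For both, the groups did not overlap. Glrx, a glutaredoxin, rose by 0.55, the peroxiredoxin Prdx1 fell by 0.45 and the microsomal glutathione transferase Mgst1 by 0.48 (adjusted p = 0.0411, 0.0169 and 0.0477). The calls of Glrx and Mgst1 were kept in 9 of 21 and 7 of 21 alternatives.

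Lysosomal proteases were among the genes that fell. Of 15 tested lysosome genes 4 fell (26.7%, beside 7.73% of all features) and 0 rose, while the list's median was -0.04. Beside Ctsc these were Psap, the precursor of the saposins, by 1.31 ± 0.25, Ctsh, cathepsin H, by 0.70 ± 0.11, and Ctsk, cathepsin K, by 0.54 ± 0.11 (SE, adjusted p = 0.00262, 0.000609 and 0.00414). Psap was -0.17, -0.35, -0.45 and -0.42 at day 2, against 0.71, 0.40, 1.26 and 1.49 in untreated blood, low and close together at day 2 and spread in untreated mice. In the same samples monocyte markers were lower, as given above, and the part of that difference in the lysosomal falls was not tested. Of 14 tested antigen presentation genes 1 fell, the immunoproteasome subunit Psmb10 (-0.84, adjusted p = 0.00952), and 3 had a positive change, with a median of -0.21. None of 5 MHC class II genes was called by limma, and 1 had an unadjusted p under 0.05.

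**Figure D5:**
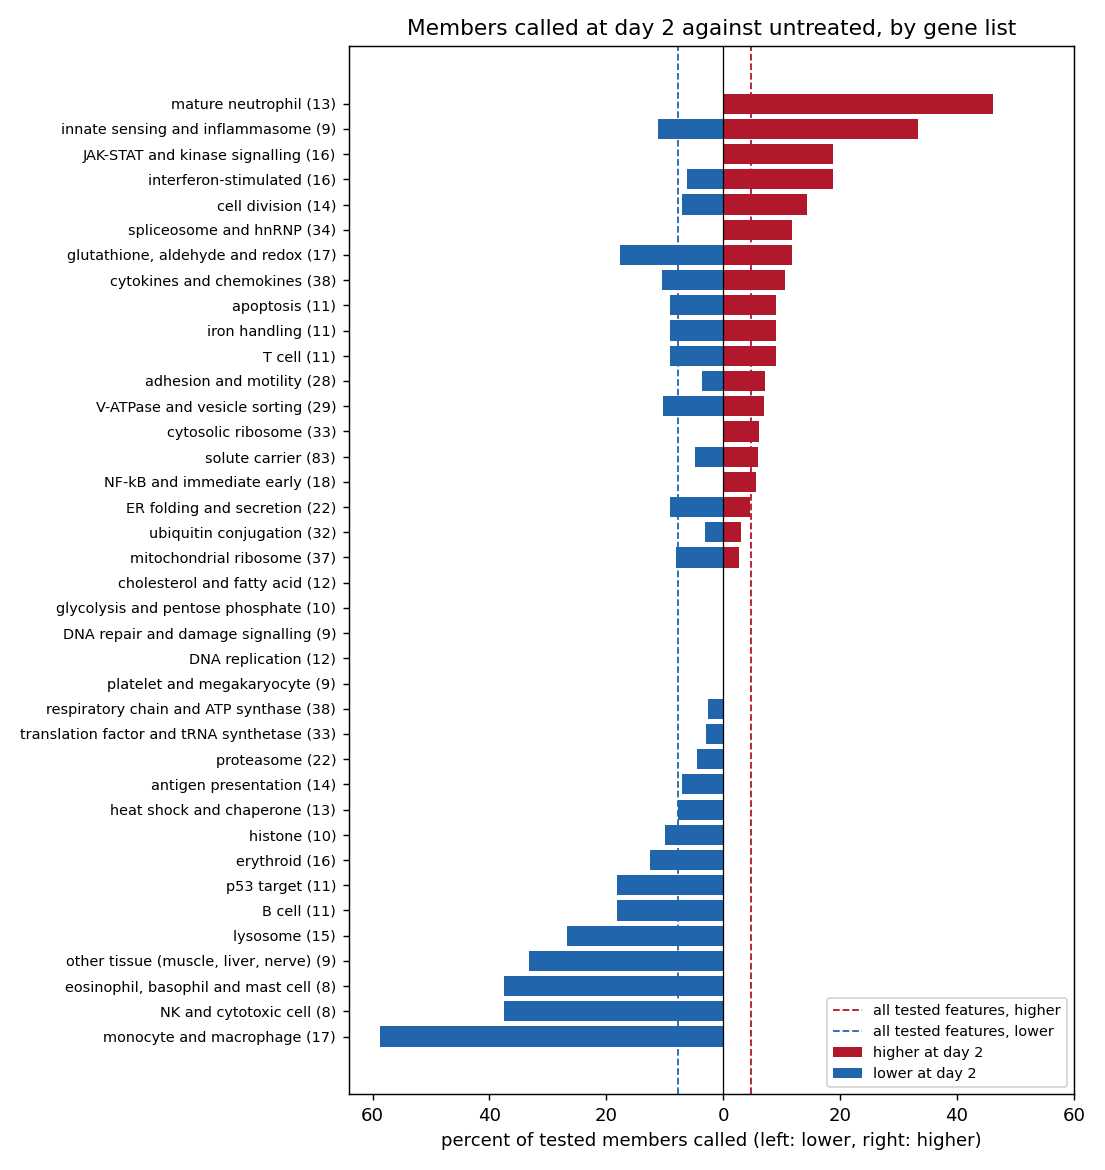
Percent of tested members called higher (red, to the right) and lower (blue, to the left) at day 2 for lists with at least 8 tested members (number in brackets), with dashed lines at the shares over all 6594 features, 4.79% and 7.73%. Mature neutrophil genes reach furthest to the right (6 of 13) and monocyte and macrophage genes furthest to the left (10 of 17).

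Secretory and structural lists were near the background. Of 22 tested endoplasmic reticulum genes 1 rose, Sel1l of the degradation machinery (0.74), and 2 fell, the disulfide isomerase Pdia4 (-1.69) and the translocon subunit Sec61g (-1.51; adjusted p = 0.0103, 0.00239 and 0.000177). Sec61g was -1.21, -1.62, -1.51 and -1.65 at day 2, against 0.04, 0.21, -0.04 and -0.16 in untreated blood, wide apart and tight in both groups. Of 13 chaperones 1 fell, Dnaja2 (-0.66). Among 28 adhesion and motility genes 2 rose, Tmsb4x and the focal adhesion protein Zyx (0.95, adjusted p = 0.0111), and 1 fell, Vav2. None of the 9 tested integrins and selectins was called by limma, and 1 had an unadjusted p under 0.05.

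Lists of basic cell machinery held between 0 and 5 calls each. Of 33 tested cytosolic ribosome genes 2 rose (Rpl36a by 0.97 and Rpl19 by 0.68), and of 37 mitochondrial ribosome genes 1 rose and 3 fell. Of 34 spliceosome and hnRNP genes 4 rose and 0 fell, Hnrnpll (0.62), Lsm4 (0.61), Hnrnph2 (0.54) and Hnrnpd (0.39), and between 1 and 5 were called higher over the alternatives. The calls of Hnrnpd, Lsm4 and Rpl19 were kept in 9 of 21, 11 of 21 and 13 of 20 alternatives. The 38 respiratory chain, 22 proteasome and 33 translation genes had 1 fall each and 0 rises, and the 29 V-ATPase and vesicle sorting genes 2 rises and 3 falls. None of 10 glycolysis and 12 cholesterol and fatty acid genes was called by limma, and 2 of each list had an unadjusted p under 0.05, in opposite directions. Medians of these lists lay between -0.03 and 0.13, beside 0.06 over all features. Of 10 tested histone genes 1 fell, the variant H2ap (-1.03).

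A few features were measured on 1 side only. Brd3, a bromodomain protein, had a value in all 4 day 2 and no untreated samples. Cstf2, Cybrd1, Gapvd1 and Smyd3 had values in all 4 untreated and no day 2 samples. Since the reason for empty cells is unknown, no direction is drawn from them. All 5 were named because their count is small, after their values were seen. For 17 called genes more than 1 probe passed the filter, and in 1 of them, Stambp, the probes had opposite signs. Called genes were chosen on the mean of their probes, which favours agreement. Among all 133 tested genes with more than 1 such probe, 52 had probes of opposite sign.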

How the data were processed

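The deposited values are log ratios, read as log2, of Cy5 (blood) over Cy3 (marrow reference) from 2-colour arrays, per the labels; the scanner, background correction, normalization and filter are not stated in any source used here. Base 2 is an assumption, and natural logarithms cannot be told apart from it; base 10 would not reach the highest value, 5.76, from 16-bit intensities (at most 4.82). Column medians lay between -0.0028 and 0.025, so ratios show unequal change, not amounts. The number of arrays limits the precision.

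Of 13443 probes, 10032 had 1 gene symbol in the platform annotation, 170 several and 3241 none; the last 2 kinds kept their probe number and are not named. Probes of a gene were averaged (389 symbols), then the 2 technical replicates. Features with fewer than 3 values in either group (6433 of 13027) were left out. limma 3.58.1 in R 4.3.3 (lmFit, eBayes) fitted 1 mean per group over all 15 samples, so that the 4 groups shared a spread, with Benjamini-Hochberg adjustment over all tested features and a threshold of 0.05. Features with under 2 values at day 1 or day 5 were left out of the comparison with that day. The procedure was tested on simulated data with each feature's measured spread, in 10 runs. The simulated noise was normal, independent between features and equal in spread in every group, and few features were changed. Of simulated log2 changes of 0.5, 40.6% were called, of 1, 83.4%, and of 2, 97.7%. False calls made up 4.96% of the calls. A gene that was not called may therefore still differ by a small amount.

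Named are the 25 largest named rises and falls among called features, up to 4 called members per list, role and direction, and defining cell type markers. The 44 gene lists and the members were chosen with earlier results of these data known. Same-numbered samples of the 2 groups had correlations of deviations of -0.02, 0.02, -0.10 and 0.21, so the numbers were not taken as pairs. The 21 alternatives changed the filter, normalization, technical replicates, prior, sample weights, probe rule, pairing and samples. Promoter sequences are from RefSeq (GRCm38.p6); of the tested genes 3855 had one.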

Additional observations from a re-analysis of the deposited data

Results flagged for a closer look

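In 97 groups of 4 samples of named genes, a sample was compared with the others by its gap over the range (Dixon's test), which chance alone passes in about 1 in 20 groups. There were 6 such samples. Day 2 replicate 1 stood apart for Alas2 at -1.33, with the other day 2 samples at -3.30 to -3.05, and also for Fut1 at -1.10 and Klk11 at -0.99, each time nearer to untreated than the other day 2 samples. Day 2 replicate 3 stood apart for Sult2b1 at -1.85. Untreated replicate 3 was low for Btnl10 at -4.02, with the other untreated samples at -3.02 to -2.84, and untreated replicate 4 was low for Rasip1 at -0.79.

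Among the 25 largest rises at day 2, 4 were below untreated by at least 1 on the log2 scale at day 5. Their difference, day 2 minus day 5, was 3.79 for Slc40a1, 2.48 for Il1rn, 2.82 for Cyp4f18 and 2.19 for Jdp2. The way these 4 were chosen fixes the direction, so the values are a description with no test.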

How the results depend on the processing

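Of 134 named calls, 86 were kept in every alternative that gave a value, 48 were lost in at least 1 and 0 reversed direction; the largest number, 31, was lost without untreated replicate 4. The count of features called at day 2 against untreated was 826, and between 530 (without untreated replicate 4) and 760 (without day 2 replicate 1) with a sample left out. Features called higher then numbered 151 to 294, 192 of them without untreated replicate 3 and 196 without day 2 replicate 4, and 548 where all columns entered with a random sample effect. With the replicate block, 674 features were called, 222 higher and 452 lower; the block moved the day 2 against day 1 count to 33. That count, 75 as reported, was 44 with technical replicate 1 alone, 274 with that random effect, and with a sample left out between 7 (without day 2 replicate 2) and 83 (without day 2 replicate 3), including 41, 25 and 27 without untreated replicates 1 and 3 and day 2 replicate 4. Quantile normalization gave 1014 calls, the fit on only the 8 samples 682, and leaving out the day 5 samples, chosen after seeing the data, 1010. The share of calls that were higher, 38.3%, was 47.4% with the random effect and 28.5% without untreated replicate 4. With a sample left out, the median change of 17 of 44 gene lists changed sign; apart from cell division and neutrophil precursor granule genes, their medians as reported lay between -0.06 and 0.12. Probes or samples with no value, 5650 measured features in day 2 replicate 1, limit which genes could be tested; the cause of these shifts was not tested.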
